A study of Mus musculus with 10 samples.

Results

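The 10 genes described here belong to the amino acid stress response and to serine synthesis, and were measured in kidneys of old mice. They are Atf4, Asns, Phgdh, Psat1, Psph, Shmt2, Mthfd2, Chac1, Trib3 and Ddit3. They were chosen by gene symbol, as the transcription factor ATF4, targets it is known for and the enzymes that make serine and pass its carbon to folate. Of the 10 symbols, 8 were in the deposited table of 13299 genes, and all 8 passed the filter on low values (a normalized count of at least 5 in at least 5 samples). The expression of Chac1 and Trib3 was not analysed here. The samples were whole kidneys of 5 Rragc S74N/+ and 5 Rragc +/+ mice, all aged 1.5 years and, per the study, of C57BL/6 background. Rragc encodes RagC, a small GTPase at the lysosome that tells mTORC1, a kinase complex for growth, that nutrients are plentiful. The S74N allele is an active, whole-body knock-in made with CRISPR/Cas9, present from the embryo on in every cell type and heterozygous in the mutant group. The comparison asks how transcription in the aged kidney differs when this signal is mildly raised. The labels do not give the sex of the mice.

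ATF4 is made when translation slows, because phosphorylation of the initiation factor eIF2α favours the reading of its mRNA, and mTORC1 also raises its translation. Much of the control of ATF4 is therefore above the level of its transcript. Its targets include amino acid transporters, aminoacyl-tRNA synthetases, asparagine synthetase and the enzymes of serine synthesis and of mitochondrial folate metabolism. In the kidney, cells of the proximal tubule make serine and take glycine back from the filtrate.

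ATF4 binds composite sites that share the core TGATGNAA, a motif that joins an ATF and a C/EBP element. These letters were searched on both strands of RefSeq promoter windows of 300 bases (250 before to 50 after the start, GRCm38.p6). All 10 genes had a window, and 3 of them, Asns, Chac1 and Trib3, held the motif. Of the 8 genes whose expression was tested, 1 held it, Asns. Of 32851 windows, 3.97% held it, as did 2.63% of the 9866 tested genes with a window. Mthfd2 had no match in its window. The stretches with a match are shown because they are where the best known targets carry these letters. The other pathway genes reported below as risen or fallen were searched too. Of these, Got1 alone held the motif and is shown, the others with a window had no match, and Asl had no window. Each is written 5′ to 3′ on the strand that reads TGATGNAA, with the motif in capitals.

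Asns, chr6:7693214-7693243, strand of the gene, which is the minus strand: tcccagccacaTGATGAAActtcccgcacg

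Chac1, chr2:119351038-119351067, strand opposite to the gene: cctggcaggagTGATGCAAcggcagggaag

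Trib3, chr2:152344028-152344057, strand opposite to the gene: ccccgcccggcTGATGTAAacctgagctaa

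Got1, chr19:43524689-43524718, strand opposite to the gene: ggaggcttgtaTGATGCAAccaatgcaatg

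The Asns match began 23 bases before the start and the Trib3 match 15 bases after it. A match is a description of the letters and not a measured site.

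Libraries read mRNAs from their 3′ ends. A count therefore did not scale with transcript length. Levels are normalized counts (reads divided by a size factor of the sample). In the 8 samples whose whole reads could be recovered, depth ran from 4488493 to 5797251 reads. Rragc itself was at 146.5 ± 42.7 (SD, n = 5) in +/+ and 124 ± 26.4 (SD, n = 5) in S74N/+ kidneys, a log2 fold change of -0.22 ± 0.20 (SE, adjusted p in limma = 0.51). The S74N change alters the protein and its level of transcript is no check of the genotype. Proximal tubule markers defined the tissue, with a summed level between 43065 and 57313 in +/+ and between 44430 and 56752 in S74N/+ kidneys. Differences between genotypes were fitted on log2(normalized count + 1) with limma, and 798 of 13236 genes passed a Benjamini-Hochberg adjusted p of 0.05, 457 higher and 341 lower in S74N/+. This split became 718 higher and 225 lower with equal library totals, and 608 higher and 274 lower with equal totals without mitochondrial genes. Replicates are separate mice, numbered by order of deposit.

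Of the 8 genes tested, 1 rose in S74N/+ kidneys, none fell and 7 did not pass the threshold. Of all genes tested, 6.03% passed, 3.45% higher and 2.58% lower. The gene that rose was Mthfd2. The median log2 fold change of the 8 was 0.13, beside -0.01 over all genes, with 6 positive and 2 negative values. Groups did not overlap for 1 of the 8, against 8.16% of all genes. Atf4 and the 3 enzymes of serine synthesis differed by less than the spread between replicates.

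**Figure D1:**
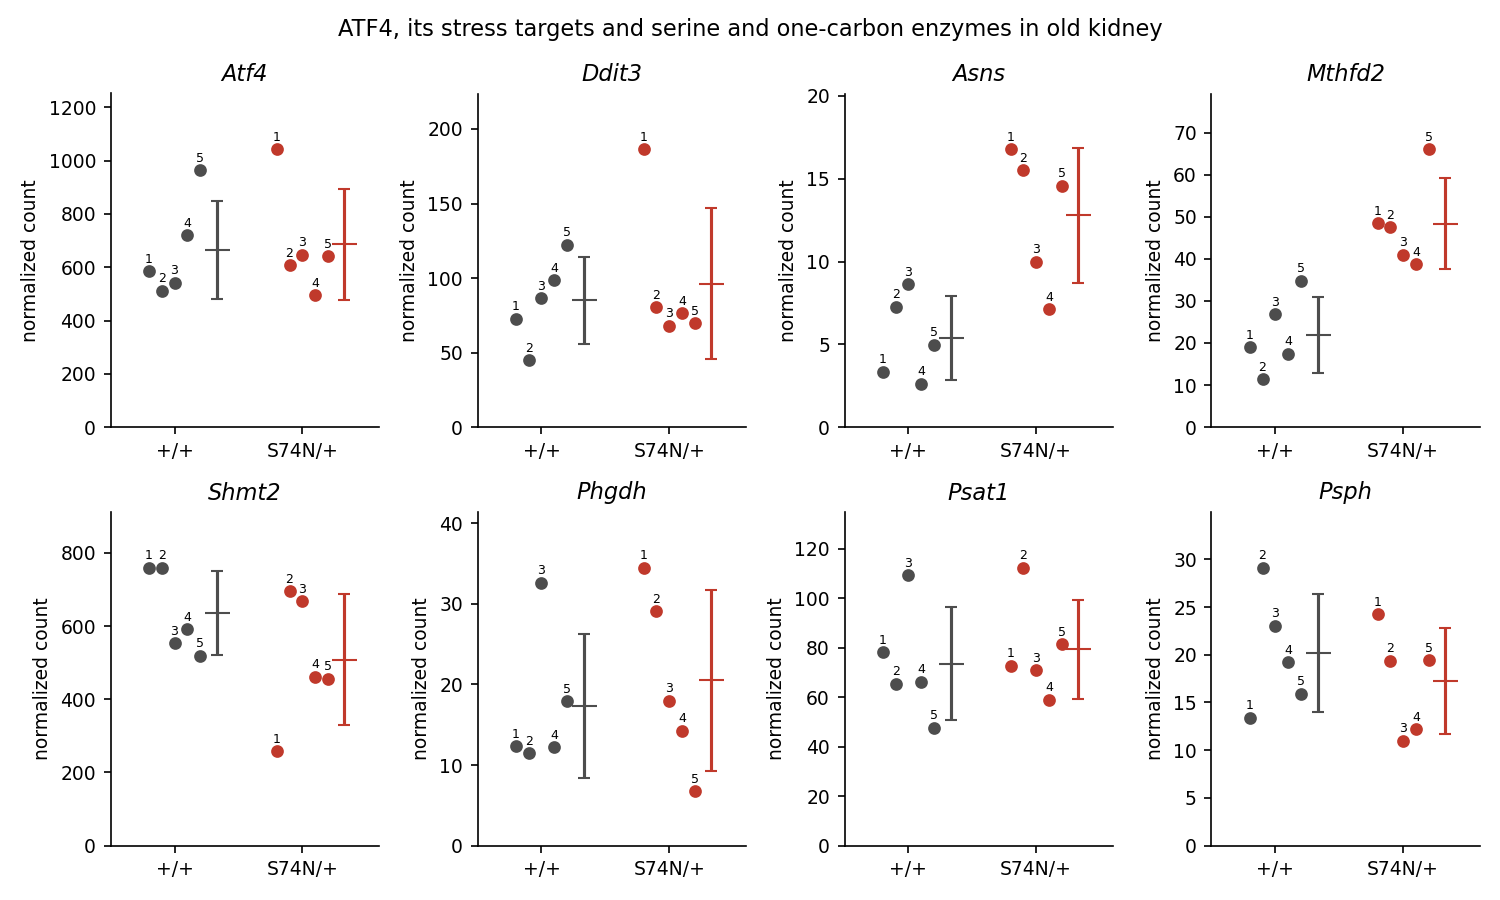
Normalized count (vertical axes, linear from 0) of the 8 genes in each kidney, with points numbered by replicate, grey for Rragc +/+ and red for Rragc S74N/+, and bars for the mean ± SD of 5 kidneys. The 5 S74N/+ points lie above all +/+ points for Mthfd2, 4 of 5 do for Asns, and the groups overlap for the other genes.

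Atf4 encodes the transcription factor at the head of the response. Its normalized counts were 586.2, 511.8, 542.4, 719.6 and 965.1 in +/+ replicates 1 to 5. They were 1044, 608.7, 646.9, 495.0 and 642.2 in S74N/+ replicates 1 to 5. The groups overlapped across most of their range, with the highest level in S74N/+ replicate 1 and the next in +/+ replicate 5. The means were 665 ± 185.6 and 687 ± 208 (SD, n = 5 each). The log2 fold change was 0.04 ± 0.19 (SE, 95% interval -0.37 to 0.45, adjusted p in limma = 0.92). The interval leaves room for a rise or a fall of moderate size.

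The number in the title of each sample falls in a range under 200 for replicates 1 to 3 of each genotype and over 200 for replicates 4 and 5. The labels do not say what this number marks. Within the lower range, all S74N/+ levels of Atf4 were above all +/+ levels, and the log2 fold change was 0.44 (adjusted p in limma = 0.26). Within the higher range, both S74N/+ levels were below both +/+ levels, and the log2 fold change was -0.56 (adjusted p in limma = 0.030). That fit, on replicates 4 and 5 only, called 617 genes, against 46 in the lower range. The direction for Atf4 thus turned between the ranges, and the pooled value covers both. The highest kidneys of the ranges were S74N/+ replicate 1 and +/+ replicate 5. This turn was seen after the values were known and was not tested. Mthfd2 was higher in S74N/+ in both ranges, by 1.29 and 1.005 on the log2 scale, and passed the threshold in neither (adjusted p = 0.15 in each).

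Ddit3 encodes CHOP, a transcription factor that ATF4 induces under prolonged stress and that favours cell death. Its levels were 72.7, 44.7, 86.4, 98.7 and 122.4 in +/+ replicates 1 to 5, and 186.5, 80.4, 68.0, 76.4 and 70.0 in S74N/+ replicates 1 to 5. One kidney, S74N/+ replicate 1, was far above the rest, and the other S74N/+ levels lay inside the +/+ range. The log2 fold change was 0.13 ± 0.29 (SE, 95% interval -0.47 to 0.74, adjusted p in limma = 0.81). Without S74N/+ replicate 1 it was -0.13, and that of Atf4 was -0.12. In that kidney the summed level of 6 perirenal fat markers was 1918, the highest of the 10 samples, against 51.9 to 193 in the other S74N/+ and 56.8 to 932 in the +/+ kidneys. Of these markers, 2 read 0 in at least 1 +/+ library and 5 in at least 1 S74N/+ library. The fat sum was 932 in +/+ replicate 3 and 123 in +/+ replicate 5, where Atf4 was at 542.4 and 965.1. In S74N/+ replicate 1, 9 markers of the last segment of the proximal tubule summed to 5157, the lowest of the 10 samples. Their sum was 7554 to 10368 in +/+ and 8064 to 10872 in the other S74N/+ kidneys. Other lists were at an extreme in this kidney too. It held the highest sums of podocyte (1408), endothelium (2523), fibroblast and mural (2301), macrophage (1257), neutrophil (83.0) and B cell (45.7) markers. Its thick ascending limb sum, 5191, was the lowest of the 10 samples. The part of fat or of these segments and cells in the levels of Atf4 and Ddit3 was not tested.

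Over the 10 kidneys, Ddit3 followed Atf4 with Pearson's r of 0.85 on the log2 scale (permutation p = 0.0017, adjusted p = 0.047 over 28 pairs of the 8 genes). Spearman's rho was 0.59 (permutation p = 0.080, adjusted p = 0.64). Without S74N/+ replicate 1 and +/+ replicate 5, the samples farthest from the median of Atf4, r was 0.48. The relation rests on those kidneys. It was the only one of 28 pairs past an adjusted p of 0.05 by Pearson's r, and none passed by Spearman's rho. Each genotype alone, and each range of title numbers, holds too few samples for a correlation.

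**Figure D2:**
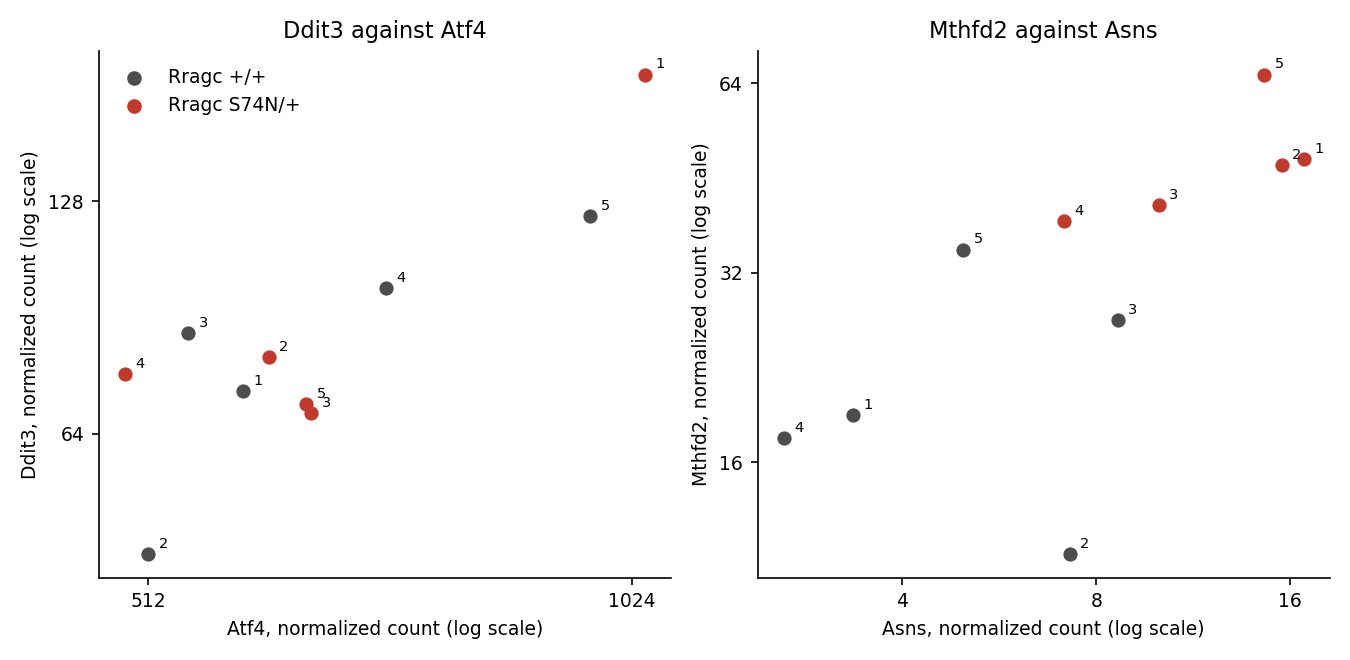
Normalized counts of Ddit3 against Atf4 (left) and of Mthfd2 against Asns (right) in 10 kidneys, on log axes, with points numbered by replicate and coloured by genotype. S74N/+ replicate 1 and +/+ replicate 5 stand at the upper end for Ddit3 and Atf4, and the S74N/+ kidneys stand above the +/+ kidneys along the Mthfd2 axis.

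Mthfd2 encodes the mitochondrial enzyme that oxidises methylene-tetrahydrofolate, an enzyme of embryos and of dividing and activated cells that most adult tissues hold at a low level. Its levels were 19.02, 11.4, 26.9, 17.5 and 34.8 in +/+ replicates 1 to 5, and 48.5, 47.5, 41.0, 38.7 and 66.1 in S74N/+ replicates 1 to 5. Every S74N/+ kidney was above every +/+ kidney, a separation in this direction that 4.15% of all genes tested showed. The means were 21.9 ± 9.07 and 48.4 ± 10.7 (SD, n = 5 each). Mthfd2 rose by 1.17 ± 0.28 on the log2 scale (SE, 95% interval 0.59 to 1.76), a 2.26-fold difference (adjusted p in limma = 0.022). The exact two-sided permutation test gave p = 0.0079, the smallest that 5 against 5 samples allow. In the 4 libraries per group with recovered reads, this came from 76 reads in +/+ (exact Poisson 95% interval 59.9 to 95.1) and 207 reads in S74N/+ kidneys (180 to 237), intervals that cover counting error only.

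The call of Mthfd2 was lost when +/+ replicate 1, 2 or 4 or S74N/+ replicate 5 was left out, with a highest adjusted p of 0.065, while its log2 fold change stayed between 0.98 and 1.36. Markers of some other cells also differed between genotypes. Proliferation markers summed to 78.0 to 155 in +/+ and 137 to 223 in S74N/+ kidneys, ranges that overlapped. Of 5 in the table, Mki67 and Top2a were higher and 3 did not pass, with a lowest log2 fold change of -0.48. Another 4 of the list, Ccna2, Ccnb1, Cdk1 and Rrm2, were absent from the deposited genes. T cell markers summed to 25.9 to 60.5 and 88.6 to 142, with 2 of 6 higher, and Cd3g, Cd4 and Cd8a were absent. Macrophage markers summed to 627 to 820 and 958 to 1257, with 3 of 8 higher. Other lists also held genes that were higher. Neutrophil markers summed to 21.1 to 38.0 and 43.0 to 83.0, with 1 of 3 higher. Another 4 of that list, Ly6g, Csf3r, Retnlg and Mpo, were absent from the deposited genes. Podocyte markers summed to 895 to 1078 and 1190 to 1408, with 2 of 6 higher. Of the fibroblast and mural list and of the tubule injury list, 3 of 7 each were higher. The sums of both lists overlapped between genotypes. They were 963 to 1727 and 1474 to 2301 for fibroblast and mural markers, and 2433 to 2818 and 2045 to 3357 for tubule injury. The mean tubule injury sum was 2610 ± 168 in +/+ and 2523 ± 532 in S74N/+ kidneys (SD, n = 5 each). Not all lists held a rise. Endothelium markers summed to 2068 to 2317 and 2027 to 2523, with 1 of 8 lower and none higher. B cell markers summed to 5.97 to 13.4 and 10.7 to 45.7, and none of 2 passed. Plasma cell markers summed to 1040 to 3349 and 1799 to 7216, and none of 7 passed. Of the T cell list, 2 genes read 0 in at least 1 +/+ library, while every gene of the proliferation and macrophage lists in the table was above 0 in all libraries. The part of these cells in the level of Mthfd2 was not tested, and in whole tissue more cells of a type and more RNA per cell cannot be told apart.

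Asns encodes asparagine synthetase, a classical target of ATF4. Its levels were 3.36, 7.28, 8.64, 2.62 and 4.97 in +/+ replicates 1 to 5, and 16.8, 15.5, 9.998, 7.13 and 14.6 in S74N/+ replicates 1 to 5. In S74N/+ kidneys, 4 of 5 levels were above all +/+ levels, and replicate 4 lay inside their range. The means were 5.37 ± 2.56 and 12.8 ± 4.07 (SD, n = 5 each), and the log2 fold change was 1.15 ± 0.42 (SE, 95% interval 0.27 to 2.04). The limma adjusted p of 0.105 missed the threshold, the unadjusted p was 0.014, and 25.4% of all genes had an unadjusted p under 0.05. The exact permutation p was 0.024, unadjusted. The 4 libraries per group with recovered reads held 22 reads in +/+ and 56 in S74N/+ kidneys (exact Poisson 95% intervals 13.8 to 33.3 and 42.3 to 72.7). Asns was so low that only 2 of 5 +/+ kidneys reached the value of 5 used in the filter, and it entered the test through the S74N/+ group.

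Mthfd2 and Asns had almost the same log2 fold change, and the mean log2 ratio of Mthfd2 to Asns was 1.85 ± 0.81 in +/+ and 1.87 ± 0.35 in S74N/+ kidneys (SD, n = 5 each). The ratio restates the difference between the fold changes and adds nothing to them. With a pseudocount of 5 the log2 fold changes were 1.03 for Mthfd2 and 0.78 for Asns, so their likeness depends on the pseudocount. This ratio, too, was chosen after the values were seen. The samples fell into the genotype groups along the Mthfd2 axis, so no pooled correlation is given.

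Shmt2 encodes the mitochondrial serine hydroxymethyltransferase, which makes the substrate of Mthfd2 from serine. Its levels were 759.6, 759.4, 552.9, 591.2 and 519.3 in +/+ replicates 1 to 5, and 257.4, 695.9, 668.9, 461.4 and 456.6 in S74N/+ replicates 1 to 5. S74N/+ replicate 1 was the lowest, replicates 4 and 5 were also below all +/+ levels, and replicates 2 and 3 lay within them. The log2 fold change was -0.39 ± 0.22 (SE, 95% interval -0.85 to 0.07, adjusted p in limma = 0.28). Without S74N/+ replicate 1 it was -0.17. The log2 ratio of Mthfd2 to Shmt2 averaged -4.87 ± 0.81 in +/+ and -3.31 ± 0.70 in S74N/+ kidneys (SD, n = 5 each), given as a description since it was chosen after the values were seen.

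The enzymes of serine synthesis act in the order Phgdh, Psat1 and Psph, and none passed the threshold. Phgdh, which oxidises 3-phosphoglycerate, was at 12.3, 11.4, 32.6, 12.2 and 17.9 in +/+ and at 34.5, 29.1, 18.0, 14.3 and 6.80 in S74N/+ replicates 1 to 5. Its highest +/+ kidney, replicate 3, lay between the highest S74N/+ kidneys, and its lowest level was in S74N/+ replicate 5. The log2 fold change was 0.16 ± 0.41 (SE, 95% interval -0.71 to 1.03, adjusted p in limma = 0.85). Psat1, the aminotransferase, was at 78.3, 65.5, 109.4, 66.4 and 47.8 in +/+ and at 72.7, 112.4, 71.0, 59.1 and 81.6 in S74N/+ replicates 1 to 5. All but 1 S74N/+ kidney, replicate 2, lay inside the +/+ range. Its log2 fold change was 0.13 ± 0.22 (SE, 95% interval -0.34 to 0.59, adjusted p = 0.76).

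Psph, the phosphatase that releases serine, was at 13.4, 29.1, 23.0, 19.2 and 15.9 in +/+ and at 24.2, 19.4, 10.998, 12.2 and 19.4 in S74N/+ replicates 1 to 5. Here S74N/+ replicates 3 and 4 were lowest and the groups otherwise overlapped. The log2 fold change was -0.22 ± 0.31 (SE, 95% interval -0.87 to 0.43, adjusted p in limma = 0.69). With 1 kidney left out it ran from -0.35 (without S74N/+ replicate 1) to -0.08 (without +/+ replicate 2). The interval for Phgdh was the widest of the 3 enzymes.

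**Figure D3:**
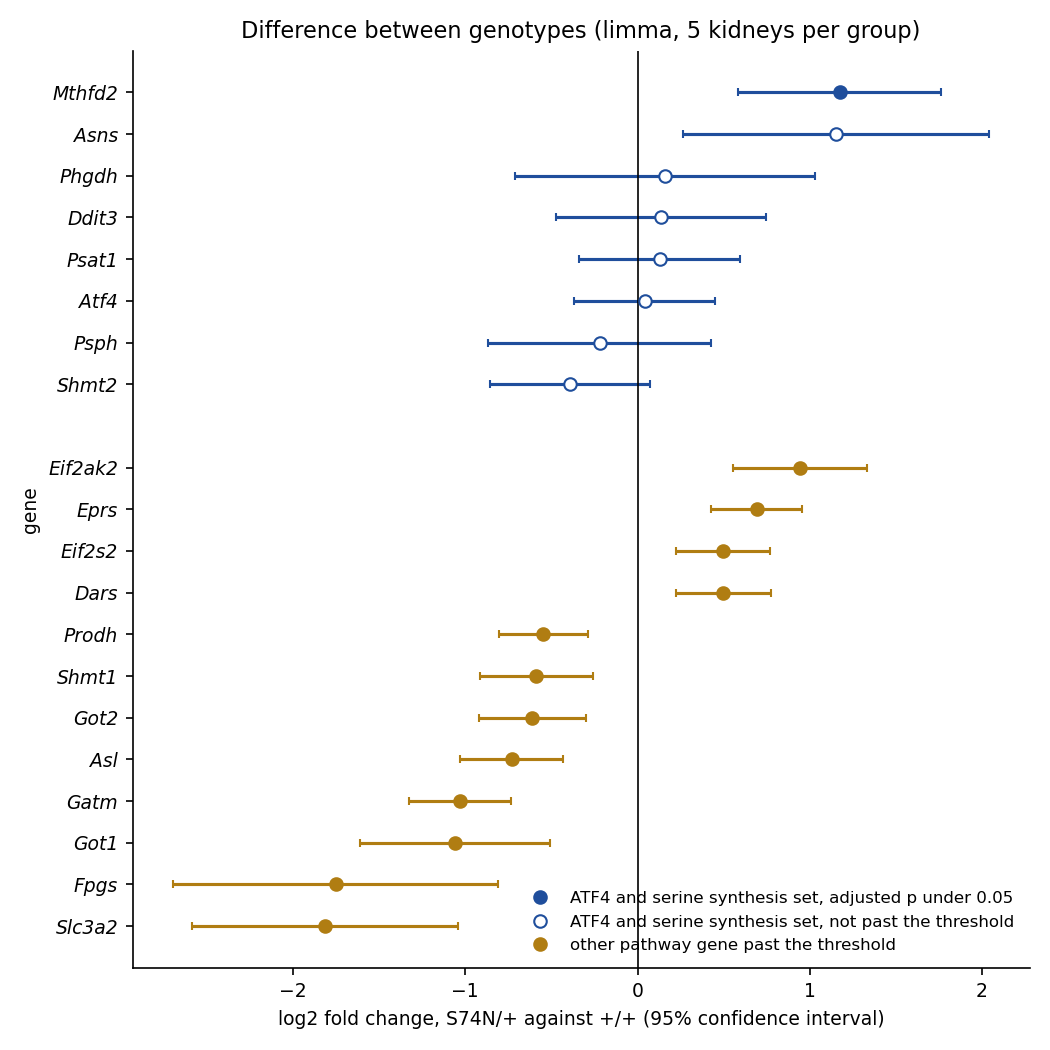
Log2 fold change of S74N/+ against +/+ (horizontal axis) with its 95% interval for the 8 genes (blue, filled where the adjusted p is under 0.05) and for the 12 other pathway genes that passed the threshold (ochre). Mthfd2 at 1.17 is the only filled blue point, and Slc3a2 at -1.81 and Fpgs at -1.75 are the largest falls shown.

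Genes around the 10 were taken from 10 lists, and of the other genes tested in them 4 rose and 8 fell, or 6.94%, close to the 6.03% of all genes. Their median log2 fold change was -0.03. Some listed genes were absent from the deposited genes and could not be tested. Beside the transporters named below, these were Atf3, Mycn, Fgf21, Tnfrsf10b, Adm2, Aldh1l2, Sds, Agxt, Pycr1 and Aldh18a1. The genes that rose were Eif2ak2, Eif2s2, Dars and Eprs. The genes that fell were Slc3a2, Fpgs, Shmt1, Gatm, Got1, Got2, Asl and Prodh.

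Of 20 genes that govern eIF2α and its exchange factor, 2 rose and none fell. Eif2ak2 encodes PKR, the eIF2α kinase that senses double-stranded RNA and that interferon induces. It ran from 28.1 to 41.9 in +/+ and from 60.0 to 89.5 in S74N/+ kidneys, without overlap, and rose by 0.94 ± 0.18 on the log2 scale (SE, adjusted p in limma = 0.0086). Eif2s2, the β subunit of eIF2, rose from a mean of 818 ± 104 to 1159 ± 184 (SD, n = 5 each, adjusted p = 0.034), with S74N/+ replicate 3 inside the +/+ range. Its call was lost in 5 of 10 fits that left out 1 kidney (adjusted p up to 0.10), and that of Eif2ak2 in none. Dnajc3, an inhibitor of eIF2α kinases, and Gcn1, the activator of GCN2, had log2 fold changes of 0.22 ± 0.12 and 0.07 ± 0.13 (SE, adjusted p = 0.27 and 0.78).

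No partner or related transcription factor passed among 13 tested, nor did any of 22 other stress targets of ATF4, with 1 and 4 of them at an unadjusted p under 0.05. Nfe2l2, which encodes NRF2, and the related Nfe2l1 had log2 fold changes of 0.04 ± 0.12 and 0.06 ± 0.18 (SE). The autophagy receptor gene Sqstm1 was at -0.05 ± 0.10 and Vegfa, the vascular growth factor, at 0.08 ± 0.16. The 12 enzymes of glutathione metabolism and 11 genes of the mitochondrial stress response also held no call, with 2 and 4 at an unadjusted p under 0.05. Ggt1, which starts the breakdown of glutathione, had a log2 fold change of 0.28 ± 0.11 (SE, adjusted p in limma = 0.14) and Gclm, a subunit of the enzyme that starts its synthesis, of 0.26 ± 0.14. The mitochondrial chaperone genes Hspe1 and Hspa9 were at -0.16 ± 0.11 and 0.02 ± 0.14.

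Of 11 tested amino acid transporters known as targets of ATF4, 1 fell and none rose. Another 4 on that list, Slc7a3, Slc7a5, Slc7a11 and Slc43a1, were absent from the deposited genes and could not be tested. Slc3a2 encodes the heavy chain 4F2hc, which brings several light chains for large neutral, cationic and other amino acids to the membrane. Its normalized counts were 714.9, 1075, 755.5, 607.8 and 483.5 in +/+ and 55.0, 287.9, 293.9, 271.9 and 244.8 in S74N/+ replicates 1 to 5. Every S74N/+ kidney was below every +/+ kidney, and replicate 1 was far below the rest of its group. Slc3a2 fell by 1.81 ± 0.36 on the log2 scale (SE, 95% interval -2.59 to -1.04, adjusted p in limma = 0.0099). Without S74N/+ replicate 1 the difference was -1.35 and still passed the threshold. The call was lost with eBayes without trend (adjusted p = 0.053) and with robust eBayes (0.064). Slc3a2 fell by 2.31 in the lower range of title numbers and by 1.07 in the higher. The transporters Slc38a2 and Slc1a4 had log2 fold changes of -0.16 ± 0.16 and 0.23 ± 0.14 (SE).

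Of 20 cytosolic aminoacyl-tRNA synthetases, 2 rose and none fell. Eprs, which charges tRNAs with glutamate and proline, was at 278 to 355 in +/+ and 438 to 615 in S74N/+ kidneys, and rose by 0.69 ± 0.13 on the log2 scale (SE, adjusted p in limma = 0.0062). Dars, which charges tRNAs with aspartate, rose by 0.50 ± 0.13 (SE, adjusted p = 0.034). Neither gene overlapped between genotypes. The call of Dars was lost in 7 of 10 fits that left out 1 kidney (adjusted p up to 0.088), with edgeR (0.082), DESeq2 (0.073) and limma (0.084) on the 8 samples with recovered reads, and with eBayes without trend (0.068). That of Eprs was lost in none of these. Sars, which charges tRNAs with serine, had a log2 fold change of 0.32 ± 0.14 and Farsa, a subunit of the phenylalanine enzyme, of 0.12 ± 0.14 (SE, adjusted p = 0.17 and 0.62).

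**Figure D4:**
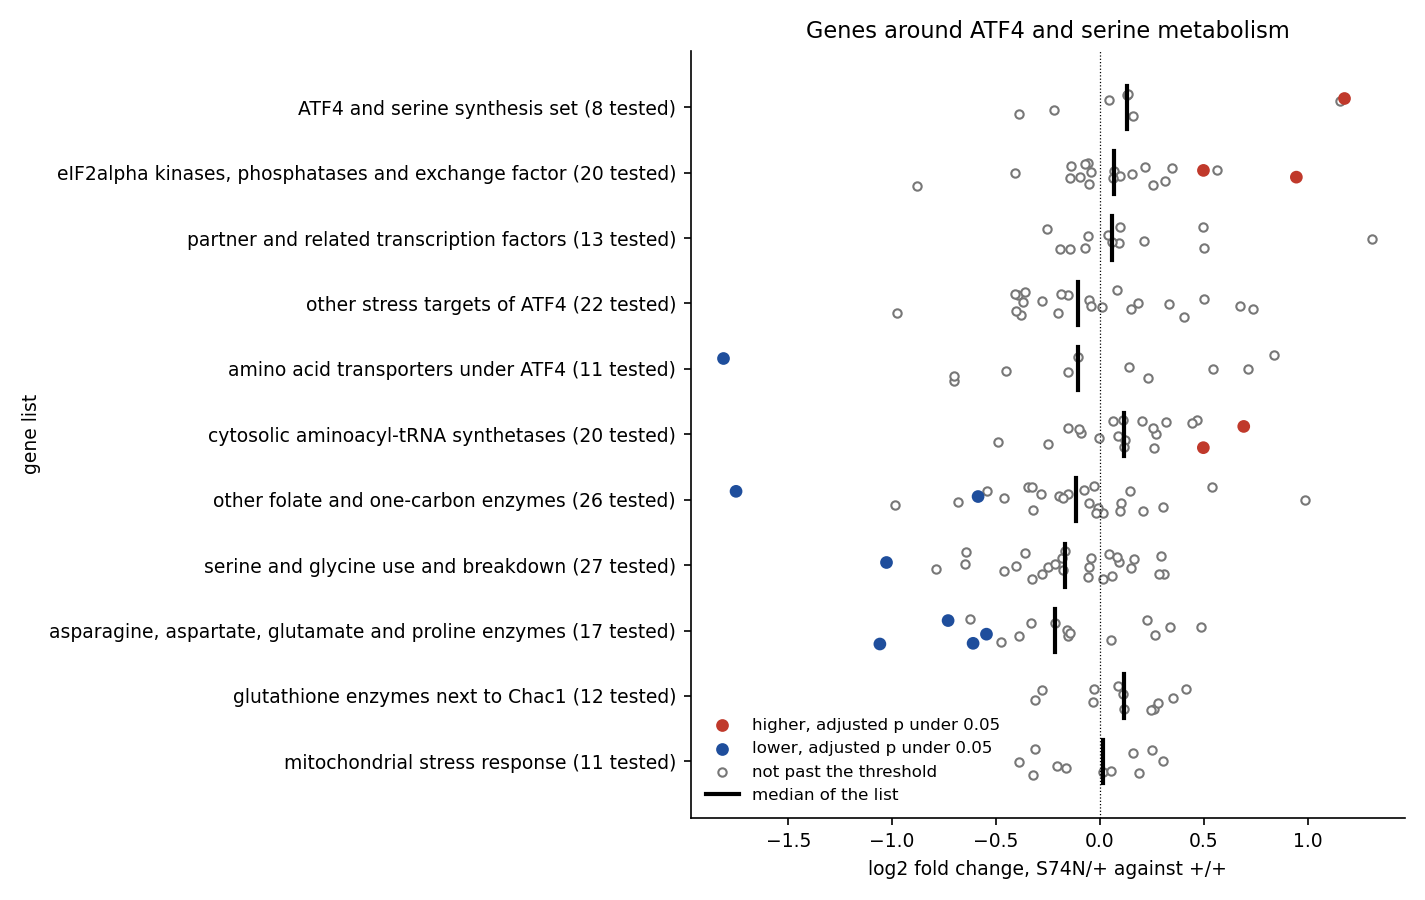
Log2 fold change of S74N/+ against +/+ (horizontal axis) of each tested gene in the set of 8 and in the 10 lists around it, with filled points for genes past the adjusted p of 0.05 (red higher, blue lower), open points for the rest and a black line at the median of each list. All medians lie between -0.22 and 0.13, and the list of asparagine, aspartate, glutamate and proline enzymes holds 4 calls, all lower.

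Of 26 other genes of folate and one-carbon metabolism, 2 fell and none rose. Fpgs, which adds the glutamate tail that keeps folates in the cell, was at 91.7, 154, 90.2, 76.0 and 60.7 in +/+ and 5.60, 22.3, 53.0, 44.8 and 36.9 in S74N/+ replicates 1 to 5. The groups did not overlap, and S74N/+ replicate 1 held the lowest level. Fpgs fell by 1.75 ± 0.45 on the log2 scale (SE, adjusted p in limma = 0.031), and by 1.24 without S74N/+ replicate 1. Shmt1, the cytosolic counterpart of Shmt2, was at 91.2 to 124 in +/+ and 62.5 to 85.0 in S74N/+ kidneys and fell by 0.59 ± 0.16 (SE, adjusted p = 0.036). The call of Fpgs was lost without +/+ replicate 1, 2, 3 or 4 or S74N/+ replicate 2 or 5 (adjusted p up to 0.098). That of Shmt1 was lost in 7 of 10 such fits (up to 0.10), with equal library totals (0.052), with eBayes without trend (0.055) and, on the 8 samples with recovered reads, with edgeR (0.058) and limma (0.057). Fpgs fell by 2.43 in the lower range of title numbers and by 0.73 in the higher. Mat2a, which makes S-adenosylmethionine, and the folate receptor gene Folr1 had log2 fold changes of 0.21 ± 0.15 and -0.18 ± 0.12 (SE). Mthfd2 was thus higher, Shmt1 and Fpgs lower, and 24 of the 26 other folate genes did not pass.

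Of 27 genes that use or break down serine and glycine, 1 fell. Gatm, which makes guanidinoacetate from glycine and arginine in the first step of creatine synthesis, was at 881.6, 1007, 780.4, 856.7 and 722.3 in +/+ and 422.4, 379, 375.9, 572.4 and 345.9 in S74N/+ replicates 1 to 5. The groups were well apart, and the highest S74N/+ kidney was replicate 4. Gatm fell by 1.03 ± 0.14 on the log2 scale (SE, 95% interval -1.33 to -0.74, adjusted p in limma = 0.00062). Sfxn1, the carrier that brings serine into mitochondria, and the glycolytic enzyme gene Pgam1 had log2 fold changes of 0.06 ± 0.09 and -0.04 ± 0.12 (SE).

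Of 17 enzymes of asparagine, aspartate, glutamate and proline, 4 fell and none rose. Got1 and Got2, the cytosolic and mitochondrial aspartate aminotransferases, fell by 1.06 ± 0.26 and 0.61 ± 0.15 on the log2 scale (SE, adjusted p in limma = 0.026 and 0.023). Asl, which splits argininosuccinate, was at 103 to 150 in +/+ and 71.3 to 78.7 in S74N/+ kidneys and fell by 0.73 ± 0.14 (SE, adjusted p = 0.0086). Prodh, which starts proline breakdown, fell by 0.55 ± 0.12 (SE, adjusted p = 0.017). These 4 genes did not overlap between genotypes. With 1 kidney left out, the call was lost in 5 of 10 fits for Got1 (adjusted p up to 0.085), 4 for Got2 (0.069), 1 for Prodh (0.051, without +/+ replicate 2) and none for Asl. Got1 fell by 1.40 in the lower range of title numbers and by 0.55 in the higher. Ass1, the enzyme before Asl, and Aldh4a1, which completes proline breakdown, had log2 fold changes of -0.22 ± 0.13 and -0.14 ± 0.14 (SE).

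Markers of some nephron segments also differed between genotypes. Of 10 proximal tubule markers, 2 fell, Slc5a2 and Gatm itself, and the summed ranges of the list, given above, overlapped. Of 9 markers of its last segment, none passed, and 0 had an unadjusted p under 0.05. Their sums were 7554 to 10368 in +/+ and 5157 to 10872 in S74N/+ kidneys. Of 7 distal convoluted tubule markers 6 fell, and their sum was 6011 to 6995 in +/+ and 2288 to 3214 in S74N/+ kidneys, where 1 of them read 0 in at least 1 library. Of 7 thick ascending limb markers 4 fell, with sums of 11314 to 15304 and 5191 to 11227. Of 9 collecting duct markers 1 rose and 1 fell, with sums of 1232 to 3402 and 1204 to 2727. The part of these segments in the levels of Slc3a2, Fpgs, Gatm, Got1, Got2, Asl, Prodh and Shmt1 was not tested.

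Among 7742 tested genes with a mean of at least 50, those whose levels over the 10 kidneys were most like Atf4 were Coa3 (Pearson's r 0.95), Lmna (0.95) and Prkag1 (0.94). Coa3 encodes an assembly factor of cytochrome c oxidase, Lmna the nuclear lamins A and C, and Prkag1 a subunit of the AMP-activated kinase. The most opposite were Leprotl1 (-0.93), Cltc (-0.92) and Vmp1 (-0.92), where Cltc encodes the clathrin heavy chain and Vmp1 a membrane protein of autophagy. None of the 6 passed the threshold between genotypes. These values describe likeness over 10 samples that share 2 genotypes and 1 set of libraries.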

How the data were processed

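RNA of 10 old kidneys (5 per genotype, 300 ng each, RNA quality 6.2 to 7) was sequenced from the 3′ end. Per the submitters' processing notes and the study's methods, TopHat2 (with Bowtie and SAMtools) placed reads on GRCm39, and HTSeq counted those on the sense strand. The deposited signal values are normalized counts, that is, counts that the authors divided by a size factor per sample. The table already lacked genes with few reads. A gene was tested with a value of at least 5 in at least 5 samples. Log2 values with a pseudocount of 1 were fitted with limma 3.58.1 (R 4.3.3, eBayes with a variance trend, genotype as the only term), two-sided, and adjusted by Benjamini-Hochberg over 13236 genes at 0.05. The pseudocount shrinks the log2 fold changes of low genes. That of Asns was 1.23 with a pseudocount of 0.5, 1.15 with 1 and 0.78 with 5. Single values were also compared by exact permutation over all allocations of 5 against 5 samples (scipy 1.17.1). The fit was tested on simulated data.

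Whole reads were recovered in 8 of 10 columns, where 100% of values came out whole within 0.1. On those samples edgeR 4.0.16 (quasi-likelihood) called 851 genes and DESeq2 1.42.0 called 1402. Permutation p-values for correlations among the genes were added to a plan that held r alone. Other alternatives are in the closing section.

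The named genes were the 10, Rragc, and from each other list the genes past the threshold (up to 4 rises and 4 falls) and 2 others with the highest mean, with 3 genes most like and 3 least like Atf4. The genes and lists were chosen with earlier results of these data known. The result of 1 gene of these lists is not reported here. Promoter letters came from RefSeq on GRCm38.p6, and no coordinates were moved between builds.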

Additional observations from a re-analysis of the deposited data

Results flagged for a closer look

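In groups of 5 kidneys, 4 values stood apart from the rest of their group by a gap larger than Dixon's limit for 5 samples. Among 40 groups over 20 genes searched, chance gives about 2.0 such values. The 20 genes share the same kidneys, so the values are not independent, and their number was not tested against chance. Atf4 in S74N/+ replicate 1 was at 1044, with the others of the group between 495.0 and 646.9. Ddit3 in the same kidney was at 186.5, with the others between 68.0 and 80.4. Slc3a2 in that kidney was at 55.0, with the others between 244.8 and 293.9. Prodh in S74N/+ replicate 2 was at 412.9, with the others between 282 and 319.6. S74N/+ replicate 1 thus held 3 of the 4.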

How the results depend on the processing

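No paired analysis was possible because the labels pair no +/+ mouse with an S74N/+ mouse. Alternatives were pseudocounts of 0.5 and 5, no filter, a mean of at least 50, 3 other scalings, eBayes without trend or robust, a block for title number, count models, leaving out each sample and, added after seeing the data, limma on 8 samples and each range of title numbers.

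The count of genes, 798, was 391 with eBayes without trend, 1402 with DESeq2 and 46 in the lower range of title numbers, and it ranged from 311 to 902 with 1 sample left out. Of the 8 genes, the count past the threshold was 0 or 1 with 1 sample left out, and 0 in the lower range of title numbers and with a mean of at least 50, which drops Mthfd2, Asns, Phgdh and Psph. In the higher range it was 1, and that gene was Atf4. Mthfd2 had 1.29 in the lower range and 1.005 in the higher, both short of the threshold, and between 0.98 and 1.36 with 1 sample left out. With edgeR it had 1.42 (adjusted p = 0.016). Asns passed in no alternative (adjusted p 0.069 to 0.44). In the higher range Atf4 had -0.56, Phgdh -0.54 and Ddit3 -0.58, each the reverse of the pooled sign. With 1 sample left out, Atf4 ran from -0.12 to 0.19, Phgdh from -0.069 to 0.48, Psat1 from -0.011 to 0.28, Ddit3 from -0.13 to 0.28, Psph from -0.35 to -0.08 and Shmt2 from -0.52 to -0.17. The cause was not tested.

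Of the 12 other genes, Gatm kept its call in every alternative. With each sample left out, Eif2ak2, Slc3a2, Eprs and Asl kept theirs, and Dars, Shmt1, Fpgs, Eif2s2, Got1, Got2 and Prodh lost it in 7, 7, 6, 5, 5, 4 and 1 of 10 fits. In the lower range of title numbers (6 samples) all but Gatm lost it. In the higher (4 samples), where 617 genes passed, Eif2ak2, Dars, Shmt1, Fpgs and Got1 lost it. EBayes without trend ended the calls of Slc3a2, Eif2s2, Dars, Shmt1, Fpgs, Got1, Got2 and Prodh, and robust eBayes those of Slc3a2 and Fpgs. Dars and Shmt1 also lost it with edgeR and limma on 8 samples, Dars with DESeq2 and Shmt1 with equal library totals. Depth limits Asns, Phgdh, Psph and Mthfd2 most.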
